A study of Mus musculus with 11 samples.

Results

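Among 11 clonal mouse embryonic stem cell lines, 4 (clones 16, 17, 18 and 19) had higher transcript levels than the other 7 (clones 20 to 26) over the distal part of chromosome 15. The 4 clones were chosen for that difference, and the genes described run from Dmc1 to the end of the chromosome. Of 373 genes of that stretch in the count table, 222 had a mean of at least 5 CPM (read counts scaled to library size) over the 11 clones, among 10354 such genes genome-wide. A further 27 genes had a mean of 1 to 5 CPM and 124 had less than 1 CPM, of which 27 had no read in any clone. The filter used all 11 clones, and 9 of the 222 genes had a mean under 5 CPM in the 7 clones, against 1 in the 4 clones. Rnd1 at 5.01 CPM, Hoxc12 at 5.01 CPM and Adcy6 at 5.08 CPM lay just inside that minimum, with log2 differences between the clone sets of 1.01, 0.22 and 0.12. Hoxc4 at 4.24 CPM, Ppp1r1a at 4.22 CPM and Gtsf1 at 3.74 CPM lay just outside it, with 0.42, -0.11 and -0.23. All 11 lines derive from EBRTcH3, mouse embryonic stem cells in which the ROSA26 promoter drives the tetracycline-controlled transactivator. Each carries barcoded piggyBac reporters under the mouse PGK promoter at random sites, came from cells sorted for high eGFP, and was picked as a single clone. All were grown with leukemia inhibitory factor, the MEK inhibitor PD0325901 and the GSK-3 inhibitor CHIR99021 in 60% BRL cell-conditioned medium. The labels give the clones no genotype, treatment or reporter site that separates the 4 from the 7, so the chromosome 15 values alone define the sets. The sets are also consecutive clone numbers. Anything else that differs between them cannot be told apart from the split. Each clone is 1 library, so a clone's own variation and that of its library cannot be told apart.

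Embryonic stem cells in culture are known to gain whole chromosomes or parts of them, and neighbouring genes then tend to be transcribed more in proportion to their copies. Single genes can depart from that proportion where feedback, limiting regulators or a state of the cell sets their level. The distal part of mouse chromosome 15 holds the keratin cluster, the Hoxc cluster, the alpha-tubulin genes and regulators such as Atf4, Srebf2, Ep300 and Sp1. DNA copy number was not analysed here, and every value below is a transcript level. Since chromosome 15 values chose the clones, they are given without any test, as a log2 difference: the mean log2(CPM + 1) of the 4 clones minus that of the 7, with its standard error (SE). A ratio of 1.5, which 1 copy more of a pair would give under strict proportion, is 0.585 on that scale. Genes are called close to it or partly shifted from 0.292 to 1, above it from 1, little changed within 0.292 of 0, and opposite below -0.292.

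The libraries held 10846005 to 16868500 counts, with the lowest total in clone 16 and the highest in clone 23. A count of 3 corresponded to 0.173 to 0.284 CPM, an allowance for counting error alone. Stem cell markers were abundant in all clones, with Pou5f1 at 777 to 970 CPM in the 4 clones and 769 to 915 CPM in the 7. Krt8 and Krt18, which are also trophoblast markers, lie on chromosome 15, were higher in the 4 clones and are described below. Trophoblast, primitive endoderm, neural and fibroblast markers of other chromosomes gave no edgeR call between the clone sets. Their summed levels overlapped, and their part in the results was not tested: they were at 122 to 169 CPM against 118 to 165 CPM for trophoblast, 539 to 756 against 414 to 570 for primitive endoderm, 77.2 to 171 against 95.1 to 281 for neural and 4038 to 6370 against 4653 to 7523 for fibroblast markers. Several clones stood apart on other chromosomes by their median gene, measured against the mean of clones 20 to 26 or, for a clone among these, of the other 6: clone 16 on chromosome 3 (0.56), clone 17 on chromosome 19 (0.58), clone 22 on chromosome 8 (0.49), clone 19 on chromosome 4 (-0.17) and clone 21 on chromosome 14 (-0.25). The 5 measured Y-linked genes were lower in clone 24 by a median of -5.96.

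The raised stretch did not have the same ends in the 4 clones. In clone 18 the best-fitting run of raised genes started exactly at Dmc1 and reached Pde1b, the last measured gene, with 222 genes and a median of 0.55. In clone 16 it began earlier, at Ly6a, and ran to Copz1 over 294 genes with a median of 0.54. In clone 19 it ran from Mroh4 to Zfp385a over 300 genes, with a median of 0.57. In clone 17 it began at Arc and ended at Slc4a8 after 263 genes, with a median of 0.60, so that 39 of the 222 genes lay beyond it. The other 7 clones had runs of 1 to 5 genes only. The 183 genes from Dmc1 to Slc4a8 were therefore inside the run of each of the 4 clones.

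**Figure D1:**
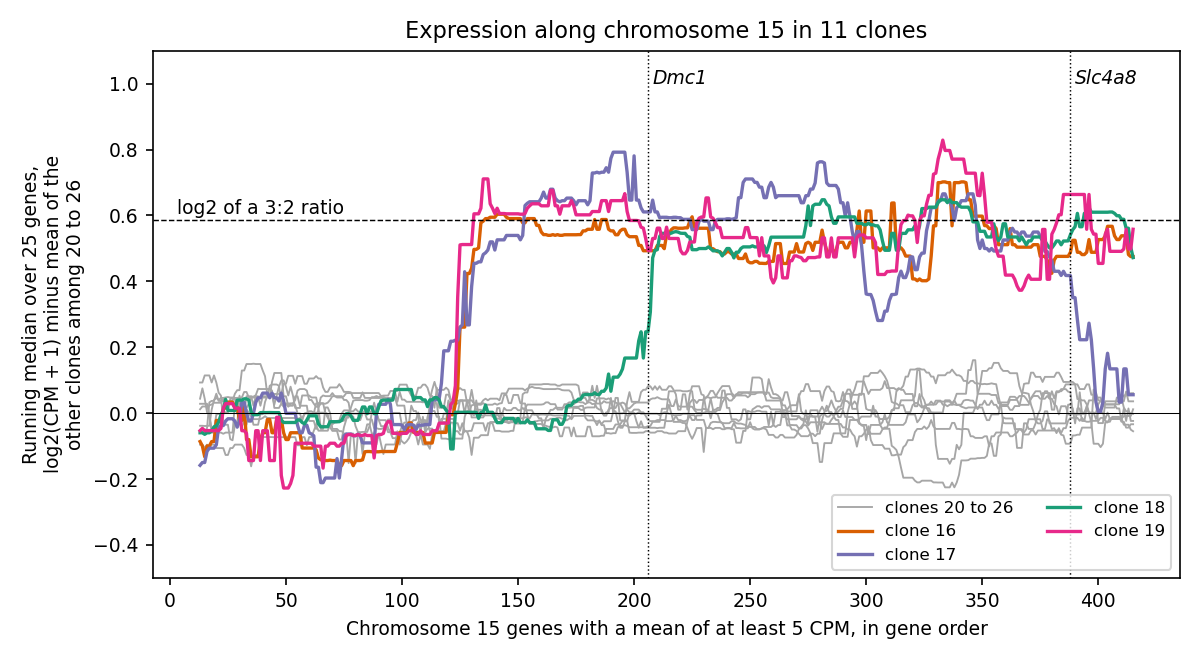
Running median over 25 genes of log2(CPM + 1) in each clone minus the mean of clones 20 to 26 (for a clone among these, the mean of the other 6), along the chromosome 15 genes of at least 5 CPM in gene order. Clones 16, 17 and 19 step up before Dmc1, clone 18 steps up at Dmc1, and clone 17 returns to near 0 after Slc4a8, while the 7 grey clones stay near 0.

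Over the 222 genes the median difference was 0.53, a 1.44-fold higher level, with quartiles of 0.33 and 0.68 (1.26-fold and 1.599-fold). The median gene stood at 0.51 in clone 16, 0.52 in clone 17, 0.55 in clone 18 and 0.54 in clone 19 relative to the mean of the 7, or 0.530 ± 0.0167 (SD, n = 4). Each of the 7 clones, set against the other 6, had a median between -0.06 and 0.04. Over these 222 genes the 4 clones were thus nearly alike in the median shift, although they differed in its ends. The value of clone 17 includes the 39 genes beyond its run. Over the 183 genes inside every run, the medians were 0.51, 0.58, 0.55 and 0.54 in clones 16 to 19. Of the 222 genes, 207 had a positive difference and 15 a negative one. In 121 genes (54.5%) all 4 clones lay above all 7 clones, against 3.50% of all 10354 genes of at least 5 CPM and 2.35% of those on other chromosomes. In 33 further genes 3 of the 4 clones lay above all 7, in 29 genes 2, in 28 genes 1, and in 11 genes none. The reverse, with all 4 clones below all 7, occurred for 1 gene, Tdg-ps, against 2.45% of all genes and 2.54% of those on other chromosomes.

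By size, 169 genes were shifted by 0.292 to 1, and 9 by at least 1 (4.05%, against 0.753% of all genes). Together these were 178 genes or 80.2%, against 13.1% of all genes. Another 38 genes (17.1%) were little changed, a class that held 76.3% of all genes. The last 6 genes (2.70%) were opposite, against 10.6% of all genes, and were 11 without clone 18. Since the clones were chosen on this stretch, these shares describe how evenly the shift was spread. The distribution peaked from 0.5 to 0.6 (16.2% of the genes), a range that holds the log2 value of 1.5, with a thin tail below 0.

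**Figure D2:**
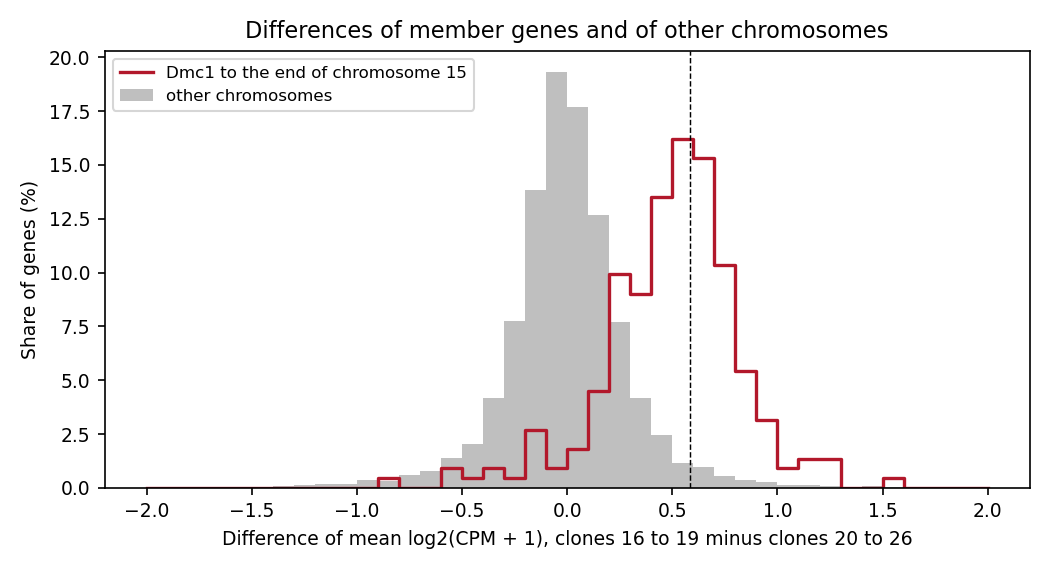
Share of genes (%) by difference of mean log2(CPM + 1), clones 16 to 19 minus clones 20 to 26, for the 222 genes from Dmc1 to the chromosome end (red line) and the genes of other chromosomes (grey); the dashed line is log2 of 1.5. The red distribution is centred at 0.53 and the grey one near 0.

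Transcription factors were mostly shifted, though several of the widely used ones moved less than the median gene. Of 12 measured, 9 were shifted and 3 were little changed, with a median of 0.42, and 6 had no overlap between the clone sets. This list and those below are to be read beside all 222 genes, with a median of 0.53 and 121 (54.5%) without overlap. Srebf2, which activates cholesterol synthesis genes, was at 393, 590, 441 and 430 CPM in clones 16 to 19 and at 247 to 322 CPM (median 310) in the 7. Its sets did not overlap, and its difference was 0.62 ± 0.14 (SE). Atf4, the transcription factor of the integrated stress response, was at 989, 583, 873 and 734 CPM against 304 to 590 CPM (median 549). Its difference was 0.68 ± 0.21, with an overlap because clone 17 lay inside the range of the 7. Sp1, a general activator of promoters rich in GC, was at 516, 406, 506 and 465.99 CPM against 386 to 452 CPM, a difference of 0.20 ± 0.08. In Sp1 the low value was again that of clone 17, whose raised run ended before this gene. Tfcp2 was little changed at 0.09 ± 0.23, with 44.5, 25.98, 50.3 and 49.5 CPM against 31.8 to 47.2 CPM. Nr4a1, an orphan nuclear receptor, showed 0.72 ± 0.17, Tef 0.64 ± 0.13, Zbed4 0.60 ± 0.13, Atf1 0.44 ± 0.08 and Mrtfa, the coactivator of serum response factor, 0.33 ± 0.06, each without overlap.

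Chromatin regulators were shifted in 11 of 14 genes, with 1 more above 1, a median of 0.46 and 10 genes without overlap. Cbx7, the chromodomain subunit of Polycomb repressive complexes, was at 533, 474, 472 and 388 CPM against 299 to 370 CPM, 0.47 ± 0.10. Ep300, a histone acetyltransferase, was at 472, 452, 445 and 362 CPM against 278 to 336 CPM, 0.49 ± 0.09. Both genes had their lowest raised value in clone 19, still above all 7 clones. Arid2, a subunit of the PBAF remodeller, reached 0.75 ± 0.08 and Brd1, a scaffold of histone acetyltransferase complexes, 0.63 ± 0.07. Kmt2d, which methylates histones at enhancers, had a smaller difference of 0.40 ± 0.06, though its sets did not overlap (350 to 406 CPM against 257 to 318 CPM). Smarcd1, a subunit of the BAF remodeller, was at 400, 371, 410 and 230 CPM against 263 to 338 CPM, 0.25 ± 0.20. Clone 19 was below all 7 clones there while the other 3 were above them. Cbx5, which encodes HP1 alpha, a reader of heterochromatin, was at 1288, 975, 1310 and 1216 CPM against 841 to 1124 CPM, 0.29 ± 0.11, and overlapped through clone 17.

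Genes of RNA processing followed the shift most evenly by their non-overlap: 11 of 12 had none, and the median was 0.52. Scaf11, a splicing-associated factor, was at 356, 342, 337 and 332 CPM against 201 to 237 CPM, 0.64 ± 0.04. Phf5a, a subunit of the spliceosome's SF3B complex, was at 89.7, 89.0, 90.8 and 89.4 CPM against 57.5 to 73.6 CPM, 0.48 ± 0.05. The SD of the 4 clones was 0.758 CPM for that gene, and none overlapped with the 7. Zcrb1, a protein of the minor spliceosome, was far above the others at 38.4, 46.6, 29.4 and 48.9 CPM against 13.6 to 20.01 CPM, 1.29 ± 0.18. Pcbp2, which binds C-rich RNA, was the exception with 1013, 652, 915 and 689 CPM against 489 to 826 CPM, 0.20 ± 0.18. Ddx23 (0.34 ± 0.09), Larp4 (0.40 ± 0.06), Tnrc6b (0.42 ± 0.12), Zc3h7b (0.49 ± 0.05), Tarbp2 (0.56 ± 0.11) and Prpf40b (0.61 ± 0.11) lay between these.

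Of 7 genes listed under translation, all were shifted, with a median of 0.47, and 6 had no overlap. Eif4b, a cofactor of the translation initiation helicase, had the highest CPM of the stretch, at 1582, 1376, 1568 and 1565 CPM against 896 to 1622 CPM (median 1206), 0.37 ± 0.12. The top of the 7 exceeded the 4 clones, so the sets overlapped. Snu13, which works in both ribosomal RNA modification and splicing, was at 147 to 172 CPM against 96.3 to 127 CPM, 0.47 ± 0.07. Adsl, an enzyme of purine synthesis rather than of translation, stood at 0.69 ± 0.12, and Trmu, which modifies mitochondrial tRNA, at 0.70 ± 0.10. Josd1, a deubiquitinase also held in that list, stood at 0.43 ± 0.07. Rpl3 (0.52 ± 0.11) and, among RNA-binding proteins, Hnrnpa1 (0.55 ± 0.12) have processed copies elsewhere in the genome that can share reads, so their levels are uncertain.

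Of 11 genes listed under cell cycle and mitosis, 10 were shifted. The exception was Smc1b, a meiotic cohesin subunit that is also counted with the meiosis genes below. The list had a median of 0.54 and 6 genes without overlap. These values were close to those of all 222 genes, at a median of 0.53 and 54.5% without overlap. Racgap1, which drives the central spindle in cytokinesis, was at 240, 231, 233 and 222 CPM against 132 to 164 CPM, or 232 ± 7.68 against 149 ± 11.7 CPM (SD, n = 4 and 7). Its difference was 0.64 ± 0.05, with a wide gap between the sets. Gtse1, expressed in the late cell cycle, was at 309, 292, 270 and 245 CPM against 164 to 225 CPM, 0.61 ± 0.09. Senp1, a SUMO protease, stood at 0.54 ± 0.08, Rbx1, a RING subunit of cullin ligases, at 0.54 ± 0.05 and Troap, a spindle protein, at 0.60 ± 0.09. Espl1, which encodes separase, was at 282, 193, 277 and 252 CPM against 199 to 211 CPM, 0.29 ± 0.13. Its clone 17 value was below all 7 clones and the other 3 were above them. Nup50 was at 0.34 ± 0.09 and overlapped by the narrow margin of 252 CPM in clone 17 against 254 CPM.

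Cytoskeletal and adhesion genes had a lower median, 0.39 over 12 genes, and 4 without overlap. Krt8 was at 27.2, 26.3, 31.6 and 34.6 CPM against 8.45 to 17.6 CPM, 1.15 ± 0.15. Krt18, its partner in the keratin filaments of simple epithelia, was at 16.5, 7.47, 9.48 and 11.0 CPM against 3.89 to 7.35 CPM, 0.99 ± 0.25. Both keratins separated the sets, also in clone 17, whose run ended before them and where Krt8 stood at 0.98 and Krt18 at 0.53 above the mean of the 7. The 3 alpha-tubulin genes had smaller differences, at 0.29 ± 0.14 for Tuba1a, 0.30 ± 0.09 for Tuba1b and 0.38 ± 0.09 for Tuba1c, and all overlapped. Their sequences are nearly identical and can share reads, so the split among them is uncertain. Arf3, a small GTPase of the Golgi, followed the shift closely with 376, 385, 385 and 351 CPM against 233 to 277 CPM, 0.59 ± 0.05. Pacsin2, a membrane-curving adaptor, stood at 0.53 ± 0.08. Lima1, an actin-binding protein, varied in both sets, at 189, 416, 198 and 493.3 CPM against 132 to 488 CPM, 0.40 ± 0.42.

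Genes of metabolism and mitochondria had the highest median of the lists, 0.74 over 13 genes, and 11 had no overlap. Ndufa6, a subunit of respiratory complex I, was at 113, 125, 106 and 120 CPM against 62.8 to 71.9 CPM, 0.74 ± 0.06. Samm50, which inserts proteins into the outer mitochondrial membrane, was at 349, 409, 343 and 366 CPM against 193 to 250 CPM, 0.75 ± 0.08. Both genes stood above the median shift with no overlap. Pfkm, the muscle form of phosphofructokinase in glycolysis, was at 152, 120, 101 and 187 CPM against 42.2 to 76.6 CPM, 1.24 ± 0.22. Cyb5r3 (0.81 ± 0.16), Prkag1 (0.78 ± 0.14), Csad (0.77 ± 0.12), Slc25a17 (0.74 ± 0.09), Letmd1 (0.70 ± 0.24), Atp5g2 (0.67 ± 0.09) and Mcat (0.53 ± 0.06) were also without overlap. Tspo, at 9.27, 16.1, 11.9 and 9.41 CPM against 7.54 to 12.8 CPM, was little changed. Soat2, which esterifies cholesterol, split the clones, with 22.3 and 33.3 CPM in clones 16 and 18 and 5.80 and 6.93 CPM in clones 17 and 19, against 8.04 to 23.3 CPM.

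Among membrane transporters, several genes spread widely over the 4 clones. The 3 neighbouring genes Slc38a1, Slc38a2 and Slc38a4 encode carriers of neutral amino acids. Slc38a4 was at 201, 969, 675 and 571 CPM against 401 to 567.6 CPM, so clone 16 was below all 7 clones and the other 3 were above, with a difference of 0.12 ± 0.49. Slc38a2 ran the other way, at 870, 481, 693 and 387 CPM against 374 to 566 CPM, 0.41 ± 0.27. Slc38a1 was at 480, 505, 576 and 264 CPM against 303 to 437 CPM, 0.23 ± 0.26, with clone 19 below all 7 and the other 3 above. In these 3 genes, which lay well inside the raised run of each clone, the order of the 4 clones differed from gene to gene. Slc48a1, a heme transporter, was the opposite case, with 30.2, 31.1, 32.5 and 28.9 CPM against 15.4 to 17.7 CPM, 0.88 ± 0.04. Over the 7 transporters the median was 0.37, and Slc48a1 and Ano6 (0.30 ± 0.11) had no overlap.

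**Figure D3:**
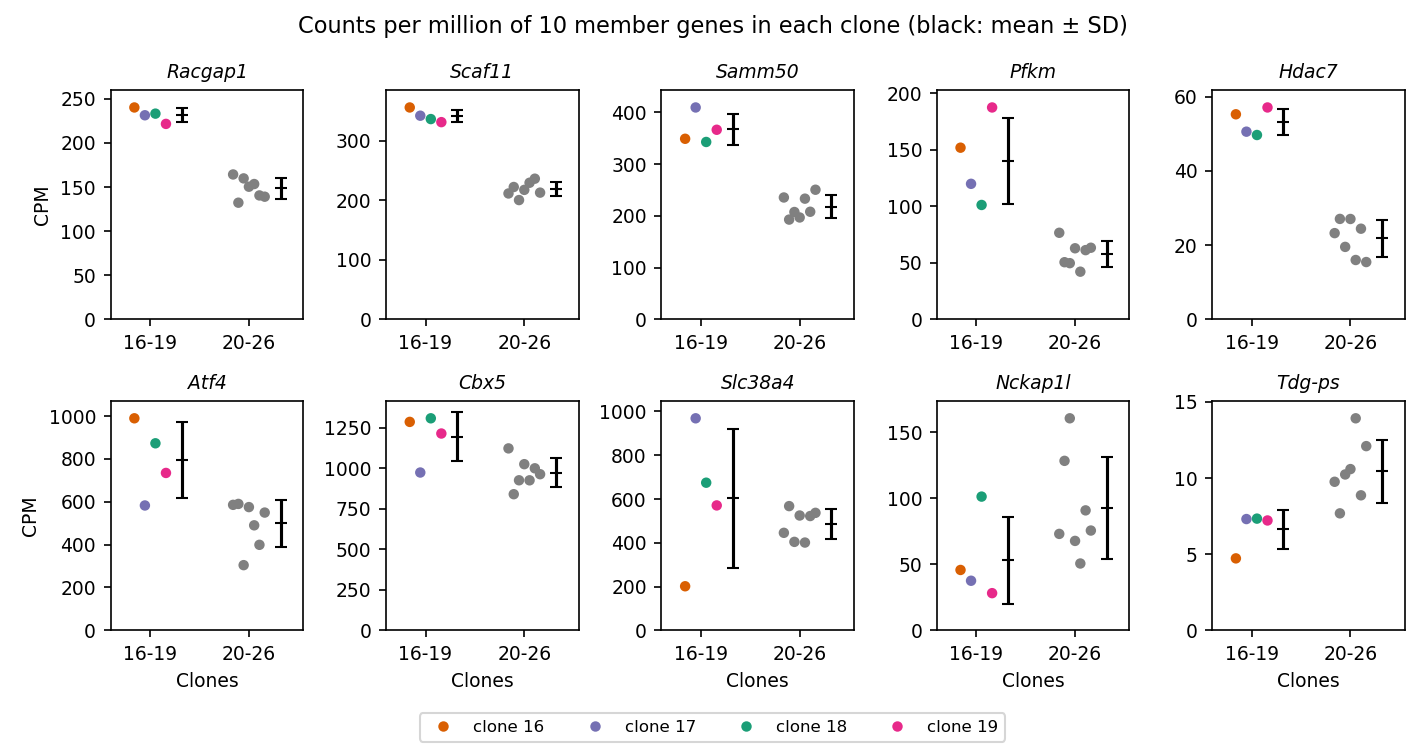
CPM of 10 of the genes in each of the 11 clones (coloured points clones 16 to 19, grey points clones 20 to 26; black bars, mean ± SD). Racgap1, Scaf11, Samm50, Pfkm and Hdac7 separate the sets, Atf4, Cbx5 and Slc38a4 overlap, and Nckap1l and Tdg-ps are lower on average in clones 16 to 19.

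Signalling genes ranged from the largest shift of the stretch to opposite ones, with a median of 0.45 over 11 genes and 4 without overlap. Celsr1, a planar cell polarity cadherin, was at 220, 331, 241 and 261 CPM against 115 to 205 CPM, 0.76 ± 0.17, and Plxnb2, a semaphorin receptor, at 386 to 418 CPM against 232 to 326 CPM, 0.57 ± 0.07. Tab1, which activates the kinase TAK1, stood at 0.68 ± 0.14 and Rhebl1 at 0.50 ± 0.13. Pim3, a serine/threonine kinase, was little changed at 152, 226, 286 and 177 CPM against 168 to 285 CPM, 0.04 ± 0.22. Acvr1b, a receptor for activin and Nodal, was at 126, 73.7, 126 and 110 CPM against 78.6 to 104 CPM, 0.19 ± 0.19. Its low value was in clone 17, below all 7 clones, and the gene lies just beyond that clone's run. The neighbouring kinase genes Mapk12 (-0.36 ± 0.31) and Mapk11 (-0.38 ± 0.33) were opposite, at 2.65 to 6.65 CPM and 3.41 to 10.0 CPM in the 4 clones. Of the 2 measured meiosis genes, Dmc1, the recombinase that pairs homologous strands, was at 16.8, 15.7, 17.9 and 19.2 CPM against 6.03 to 16.7 CPM, 0.75 ± 0.19. Smc1b, the meiotic cohesin subunit, was at 5.29, 63.3, 32.5 and 12.1 CPM against 16.4 to 50.3 CPM, -0.45 ± 0.77.

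The other 122 genes, in none of those lists, had a median of 0.54, and 61 had no overlap. Some of them, chosen after their values were seen, show how tight the shift could be. Mief1, a mitochondrial fission factor, was at 205, 198, 197 and 199 CPM against 121 to 140 CPM, 0.60 ± 0.03. Ncaph2, a condensin subunit, was at 313, 329, 295 and 320 CPM against 168 to 184 CPM, 0.83 ± 0.04. The cochaperone St13 was at 726, 744, 697 and 659 CPM against 422 to 538 CPM, 0.57 ± 0.06. Atxn10 was at 719, 797, 571 and 632 CPM against 303 to 426 CPM, 0.91 ± 0.12. Close to Dmc1, the first genes of the stretch were raised in all 4 clones without overlap, with Cby1 at 0.70 ± 0.10, Tomm22 at 0.70 ± 0.08 and Josd1 as above.

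The 10 genes with the largest differences were Prickle1, Zcrb1, Hdac7, Pfkm, Asb8, Krt8, Pou6f1, A4galt, Rnd1 and Krt18. Hdac7, a class IIa histone deacetylase, was at 55.2, 50.5, 49.6 and 57.1 CPM against 15.5 to 27.1 CPM, 1.27 ± 0.13. Asb8, a SOCS box protein, was at 82.3, 90.0, 56.8 and 102 CPM against 24.01 to 45.3 CPM, 1.19 ± 0.21. A4galt, which makes the globotriaosylceramide sugar chain, was at 66.9, 137, 58.4 and 105 CPM against 23.9 to 55.8 CPM, 1.05 ± 0.33. None of these 3 genes overlapped. Prickle1, another planar cell polarity gene, was at 10.2, 20.7, 6.65 and 15.9 CPM against 1.39 to 10.7 CPM, 1.58 ± 0.42, and overlapped through clone 26 alone, since the other 6 had at most 3.56 CPM. Pou6f1, a POU-domain factor, was at 24.8, 27.8, 21.7 and 60.6 CPM against 8.70 to 28.0 CPM, 1.12 ± 0.39, led by clone 19. Rnd1, a small GTPase, was at 15.98, 4.21, 4.85 and 7.68 CPM against 2.20 to 4.97 CPM, 1.01 ± 0.41, led by clone 16. Of these 10 genes, 6 lay among the 29 from Zcrb1 to Rnd1, an interval chosen after the values were seen. Its median was 0.70, against 0.51 in the other 193 genes, and its clone medians were 0.70, 0.64, 0.64 and 0.83.

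**Figure D4:**
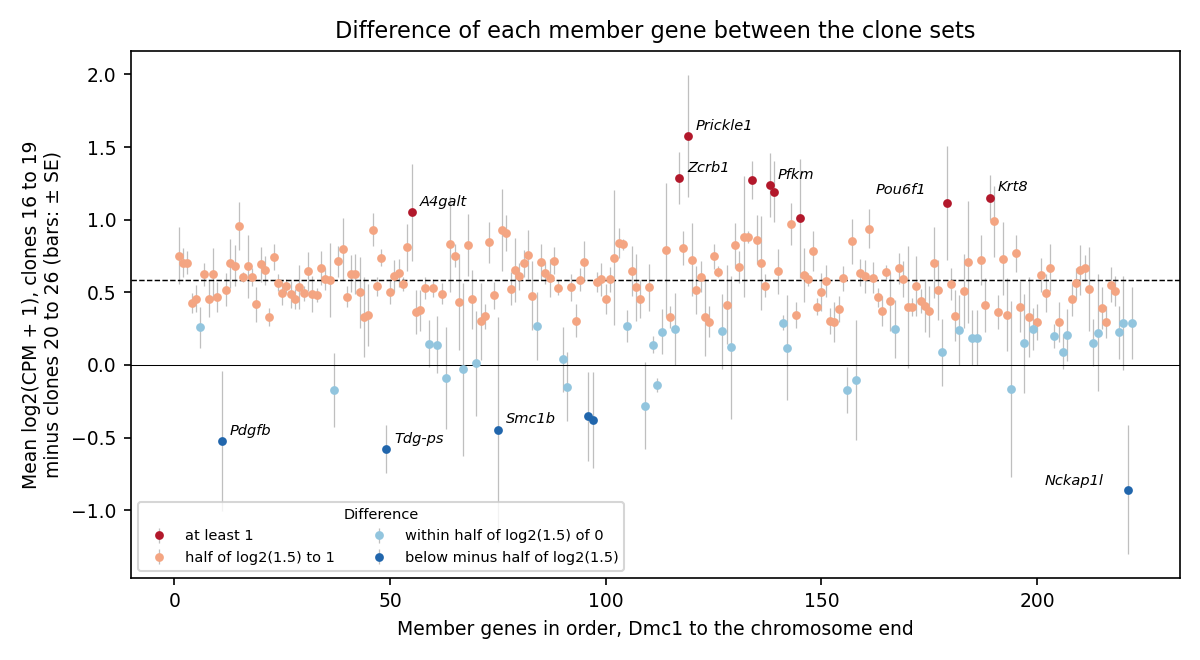
Difference of mean log2(CPM + 1), clones 16 to 19 minus clones 20 to 26, of the 222 genes in chromosome order (bars, ± SE; dashed line, log2 of 1.5). Most points lie between 0.292 and 1, 9 genes lie at 1 or above, and 6 lie below -0.292.

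The 10 genes with the smallest differences were Nckap1l, Tdg-ps, Pdgfb, Smc1b, Mapk11, Mapk12, Shank3, Dnajc22, 1700029P11Rik and Soat2. Nckap1l, a subunit of the WAVE actin regulator known from blood cells, was at 45.7, 37.5, 101 and 28.1 CPM against 50.5 to 160 CPM, -0.86 ± 0.44. Clones 16, 17 and 19 were below all 7 clones and clone 18 was inside their range. Nckap1l lies beyond the ends of the raised runs of clones 16, 17 and 19 and inside that of clone 18. Those ends were set from these same values. Pdgfb, the ligand platelet-derived growth factor B, was at 2.17, 11.9, 8.17 and 3.18 CPM against 5.64 to 9.37 CPM, -0.53 ± 0.48, so clone 17 was above and clones 16 and 19 were below all 7. Shank3, a synaptic scaffold, was at 22.5, 11.1, 23.4 and 10.4 CPM against 17.1 to 21.9 CPM, -0.28 ± 0.30. In Pdgfb, Shank3, Smc1b and Soat2 the 4 clones thus lay on both sides of the 7, and an average near 0 or below does not describe any of them. Genes whose difference stayed under 0.292 after adding 2 SE were 7: Nckap1l, Tdg-ps, Mapk11, Mapk12, Dnajc22, Rpl31-ps8 and Alg10b. That rule takes 55.0% of all genes of at least 5 CPM. Nckap1l, Mapk11 and Mapk12 met it through their negative averages and were not measured closely, with SE of 0.44, 0.33 and 0.31. Alg10b, a glucosyltransferase of the N-glycan precursor, was at 91.5, 88.4, 85.2 and 78.4 CPM against 71.1 to 86.0 CPM, 0.14 ± 0.06, a narrow spread around a small difference. Dnajc22 was at 10.7, 11.6, 14.3 and 8.26 CPM against 10.9 to 15.3 CPM.

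Tdg-ps and Rpl31-ps8 are named as pseudogenes and can share reads with genes elsewhere, so their counts are uncertain. Tdg-ps was at 4.73, 7.31, 7.34 and 7.22 CPM against 7.68 to 13.9 CPM, -0.58 ± 0.16. Tdg, the thymine DNA glycosylase gene on chromosome 10, had a difference of the same sign, at 24.03 ± 2.38 CPM against 31.2 ± 4.85 CPM (SD, n = 4 and 7), -0.35 ± 0.10. Rpl31-ps8 was at 7.23 to 8.17 CPM against 7.98 to 9.44 CPM, -0.14 ± 0.05, and Rpl31 on chromosome 1 at -0.09 ± 0.12. How far shared reads set the values of these pseudogenes was not tested.

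Beyond the end of the clone 17 run, the 39 genes from Scn8a to Pde1b had a raised median in clones 16, 18 and 19 and not in clone 17. Their median was 0.49 in clone 16, 0.59 in clone 18 and 0.56 in clone 19, and 0.06 in clone 17. Clones 16, 18 and 19 lay above the other 8 clones in 22 of the 39 genes (56.4%, against 1.92% of all genes), with a median of 0.48. All 4 clones lay above the 7 in 10 genes: Nr4a1, Krt8, Krt18, Csad, Pfdn5, Myg1, Tarbp2, Atp5g2, Hnrnpa1 and Copz1. For 12 genes the sets overlapped only through clone 17. Scn8a, a sodium channel, was at 36.0, 10.9, 35.2 and 32.3 CPM against 8.60 to 19.7 CPM. Calcoco1, a coactivator and selective autophagy receptor near the chromosome end, was at 185, 76.9, 169 and 130 CPM against 76.3 to 107 CPM, 0.52 ± 0.29. Both show clone 17 within the range of the 7 and the others above it. With clone 17 left out of these 39 genes alone, the median of all 222 genes was 0.54 and 133 genes had no overlap. Within the 183 shared genes the median was 0.54 and 111 genes had no overlap. The measured Hoxc genes near the end were little changed, with Hoxc13 at 15.7, 12.8, 18.001 and 21.5 CPM against 12.7 to 16.9 CPM and Hoxc12 at 2.08, 5.32, 6.44 and 9.59 CPM against 2.58 to 6.79 CPM.

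Before Dmc1, a block of 76 genes from Ly6a to Ddx17 was raised in clones 16, 17 and 19, with medians of 0.57, 0.65 and 0.62, and not in clone 18, at 0.02. The 3 clones lay above the other 8 in 55 of the 76 genes (72.4%, against 5.11% of all genes). Polr2f, a subunit of the RNA polymerases, was at 81.4, 103, 60.2 and 96.2 CPM in clones 16 to 19 and Eif3d, a subunit of translation initiation factor eIF3, at 268, 315, 191 and 304 CPM. Clone 18 was near the 7 clones for Eif3d, whose highest was 208 CPM, and slightly above them for Polr2f, whose highest was 58.3 CPM. Ly6a was at 2.84, 4.61, 1.87 and 55.5 CPM against 0 to 2.59 CPM, led by clone 19 alone. Plec (229, 258, 218 and 257 CPM) and Myh9 (666, 613, 543 and 506 CPM), large cytoskeletal genes of the block, differed little from the 7 clones, at 0.09 and 0.02. The 129 chromosome 15 genes before the block had a median of -0.06.

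How far a gene lay from the median shift went with its level and spread. Genes were put in 3 equal groups of 74 by mean CPM in the 7 clones, and the median difference was 0.51, 0.57 and 0.50 from the lowest to the highest. Little changed or opposite genes were 25, 7 and 12 in those groups. By the SD among the 7 clones, they were 8, 12 and 24 from the steadiest to the most variable group, and genes without overlap were 60, 44 and 17. Across the 222 genes, Spearman's rho of the distance from the median shift was -0.29 with mean CPM and 0.38 with that SD, while rho of the difference itself was 0.00 and -0.06. The mean and SD of the 7 clones come from values that also enter the difference and the overlap, so part of these relations is built in. These points share libraries and are not independent, so they carry no test. The median SD of log2(CPM + 1) was 0.230 in the 4 clones and 0.169 in the 7 for these genes. For genes of other chromosomes it was 0.206 and 0.168.

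On the other chromosomes, which had no part in choosing the clones, 400 of 11859 genes tested differed between the 4 and the 7 clones at an adjusted p under 0.05 by edgeR's quasi-likelihood test (3.37%), 243 higher (2.05%) and 157 lower (1.32%). Of the 400, which this test picked for their difference, 275 had no overlap between the sets. Among all genes of at least 5 CPM on other chromosomes, 2.35% were higher and 2.54% lower without overlap. A log2 fold change of at least 1 in size was seen in 149 of the 400. At an unadjusted p under 0.05 there were 2524 (21.3%), and with chromosome 15 the calls were 566 of 12479 genes (4.54%). The clones did not contribute alike: among the 243 higher genes, clone 16 was above all 7 clones in 228, clone 17 in 231, clone 18 in 180 and clone 19 in 240. Set alone against the 7, with the lone clone assumed to vary as they do, clone 16 gave 415 edgeR calls, clone 17 gave 641, clone 19 gave 1007 and clone 18 gave 1, Stra8. The count was 865 when clone 18 was dropped, and 194, 181 or 88 when clone 16, 17 or 19 was. Dropping clone 20, 22, 23, 24 or 25 gave 188, 177, 194, 238 or 174. DESeq2 called 1170 of the 11859, including all 400. The tests treat the clones as independent, and whether some of the 4 are related was not tested. What else the 4 clones share besides the chromosome 15 shift cannot be told apart from it.

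Calls were spread over the chromosomes. Chromosome 14, where the median of clone 21 was low, held the highest share, with 36 of 419 genes (8.59%), 30 of them higher. Chromosomes 3 and 19 held 25 and 12 calls, of which 22 and 12 were higher, and clones 16 and 17 were raised there. On the 13 chromosomes left without 15, those where a clone's median moved by over 0.1, and 17, where earlier results of these data had shown a shifted part, 283 of 8343 genes were called (3.39%), 154 higher and 129 lower. How far those chromosome shifts made the calls on chromosomes 3, 14 and 19 was not tested.

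The higher genes with the largest fold changes and at least 5 CPM were Cited4, Stra8, S100a13, Abca1, Tgm2, Sh3gl3, Tmem106a, Apcdd1, Hormad2 and Calcoco2. Stra8, a retinoic acid responsive gene that starts meiosis in germ cells, was at 4.82, 11.1, 16.3 and 18.6 CPM against 1.58 to 2.90 CPM, a log2 fold change of 2.74 ± 0.30 (SE; edgeR adjusted p = 0.00066). Hormad2, a protein of meiotic chromosome axes, was at 13.9, 15.3, 11.0 and 21.7 CPM against 1.76 to 7.79 CPM, 1.91 ± 0.35 (edgeR adjusted p = 0.0115). Both meiotic genes were higher in each of the 4 clones than in any of the 7. Cited4, a coactivator that binds the acetyltransferases CBP and Ep300, was at 13.1, 7.39, 7.82 and 27.1 CPM against 0.909 to 2.79 CPM, 3.15 ± 0.37 (edgeR adjusted p = 0.00098). Tmem106a was at 20.5, 21.5, 11.7 and 19.6 CPM against 3.85 to 6.80 CPM, 1.96 ± 0.19 (edgeR adjusted p = 0.00055), and Sh3gl3, an endophilin, at 6.72 to 18.5 CPM against 1.32 to 4.79 CPM, 2.07 ± 0.33 (edgeR adjusted p = 0.0051). Abca1, the cholesterol exporter, was at 166, 87.5, 74.0 and 210 CPM against 7.67 to 59.8 CPM. Tgm2, a transglutaminase, was at 15.4, 34.5, 12.3 and 53.1 CPM against 1.89 to 9.45 CPM. The autophagy receptor gene Calcoco2 was at 91.9, 77.2, 30.6 and 173 CPM against 16.3 to 50.9 CPM, with an overlap through clones 18 and 26.

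**Figure D5:**
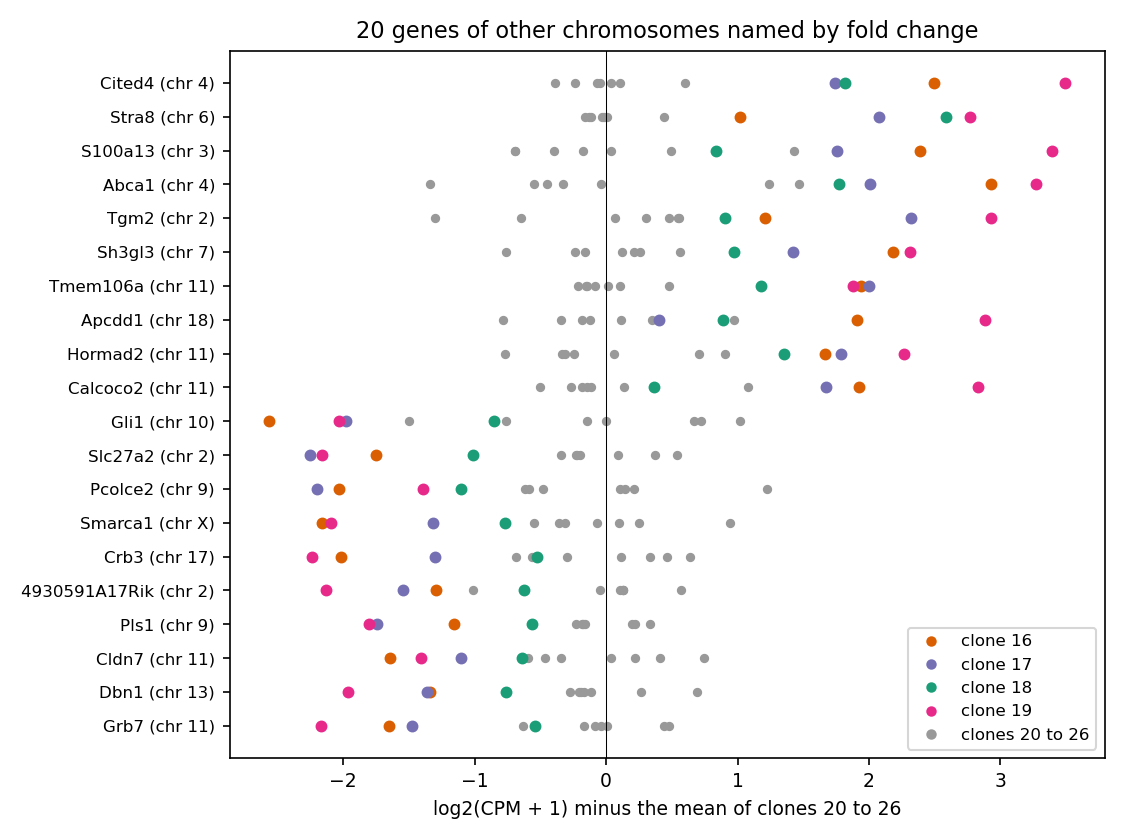
log2(CPM + 1) minus the mean of clones 20 to 26 for the 10 higher and 10 lower genes of other chromosomes with the largest fold changes (chromosome in brackets), in each clone. In most rows clone 18 (green) lies nearest to the grey clones of the 4.

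The lower genes were Gli1, Slc27a2, Pcolce2, Smarca1, Crb3, 4930591A17Rik, Pls1, Cldn7, Dbn1 and Grb7. Slc27a2, a fatty acid transporter and acyl-CoA synthetase, was at 2.55, 1.51, 4.92 and 1.67 CPM against 8.40 to 16.3 CPM, -2.07 ± 0.34 (edgeR adjusted p = 0.0056). Dbn1, the actin-binding protein drebrin, was at 4.35, 4.29, 6.99 and 2.48 CPM against 10.2 to 20.9 CPM, -1.52 ± 0.29 (edgeR adjusted p = 0.0135). Gli1, a transcription factor and target of Hedgehog signalling, was at 1.42, 2.62, 6.92 and 2.48 CPM against 4.06 to 27.9 CPM, -2.19 ± 0.55 (edgeR adjusted p = 0.0440). Crb3 and Cldn7, which build epithelial polarity and tight junctions, were at 1.56 to 7.41 CPM against 6.53 to 17.8 CPM and at 1.32 to 3.67 CPM against 3.81 to 11.2 CPM. Clone 18 was the highest of the 4 clones for each of these 5 genes. Smarca1, a remodelling ATPase, was at 2.65, 5.56, 8.58 and 2.83 CPM against 10.2 to 30.4 CPM.

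Of 29 named genes of other chromosomes, 7 stayed called by edgeR when any one clone was left out: Cited4, Dbn1, Hormad2, Sh3gl3, Slc27a2, Stra8 and Tmem106a. Calls ended without clone 19 alone for Calcoco2 (edgeR adjusted p = 0.0775), Sox4 (0.0622) and Wipi1 (0.0617), without clone 17 or 19 for Pls1 (0.0532 to 0.0622) and Tgm2 (0.0535 to 0.0922), and without clone 16 or 19 for Sox3 (0.0519 to 0.0644). The edgeR calls ended without clone 16, 17 or 19 for Pcolce2 (0.0599 to 0.0648), without clone 16, 19 or 22 for Abca1 (0.0511 to 0.0825), and without clone 16, 17, 19 or 22 for Grb7 (0.0513 to 0.0681) and Smarca1 (0.0526 to 0.0906). Dppa5a lost its edgeR call without clone 16, 17, 19 or 25 (0.0506 to 0.0921), Asns without 16, 19, 22, 23 or 25 (0.0536 to 0.0692), Fdps without 16, 17, 19, 22 or 25 (0.0542 to 0.101), S100a13 without 16, 19, 20, 22 or 23 (0.0526 to 0.115) and Rara without 16, 19, 20, 23, 24 or 25 (0.05 to 0.102). Cldn7 lost it without 16, 17, 19, 20, 22, 23 or 24 (0.0574 to 0.117), 4930591A17Rik without 16, 17, 19, 20, 21, 22, 23 or 25 (0.0518 to 0.0921), Gli1 without 16, 17, 19, 20, 21, 22, 23 or 24 (0.0586 to 0.139) and Apcdd1 without 16, 19, 20, 22, 23, 24, 25 or 26 (0.0507 to 0.164). Crb3, Otx2 and Rfc1 each lost their edgeR calls in 9 such fits, Crb3 in all but those without clone 18 or 21 and the other 2 in all but those without clone 18 or 26, with adjusted p up to 0.136, 0.152 and 0.140. Otx2 also lost its edgeR call with TMM scaling that left out chromosome 15 (0.0513), without a filter (0.0521) and at 5 CPM (0.0505). Rfc1 lost it with that scaling (0.0525) and without a filter (0.0608), and Crb3 without a filter (0.0515).

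Calls among targets of Atf4 and Srebf2, and among partners of Cbx5 and Eif3l, are read beside those of all genes outside chromosome 15. Over all these genes edgeR called 2.05% higher and 1.32% lower, and DESeq2 called 1170 of 11859. Of 20 targets of Atf4, 1 was higher, Asns, the asparagine synthetase, at 1541, 1202, 1474 and 1344 CPM against 994 to 1164 CPM, 0.35 ± 0.08 (edgeR adjusted p = 0.0278), with a list median of 0.12. Of 16 genes of cholesterol synthesis under Srebf2, 1 was higher, Fdps, on chromosome 3, at 24.1, 25.1, 16.3 and 31.0 CPM against 12.4 to 17.2 CPM, 0.69 ± 0.15 (edgeR adjusted p = 0.0283), with a list median of 0.12. None of 12 partners of Cbx5 in heterochromatin and none of 8 eIF3 subunits were called by edgeR, with list medians of -0.04 and 0.04. In these lists 3 and 1 genes had an unadjusted p under 0.05, and DESeq2 called 1 in each. They hold partners rather than targets. Eif3l itself lies before Dmc1 and was not raised in clone 18, at 433 CPM against 348 to 550 CPM in the 7 clones. In the Atf4 and Srebf2 lists 2 and 1 genes had an unadjusted p under 0.05, and DESeq2 called 1 in each. Over all genes tested outside chromosome 15 the median was -0.01.

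Of 9 genes responsive to retinoic acid, Stra8 was higher and Rara, a receptor of it, was lower at 26.1, 49.7, 44.0 and 31.3 CPM against 53.4 to 77.8 CPM, -0.73 ± 0.17 (edgeR adjusted p = 0.0303). Their median was 0.62, and 5 of the 9 had an unadjusted p under 0.05, against 21.3% of all genes outside chromosome 15. DESeq2 called 4 of the 9, with 3 of them higher, and 1170 of all 11859 genes outside chromosome 15. Dhrs3, which reduces retinal, was at 1.80, 5.48, 3.05 and 7.91 CPM against 0.189 to 2.65 CPM and did not pass, 1.76 ± 0.50 (edgeR adjusted p = 0.0651). Of 10 genes of the primed epiblast, 3 were lower and none higher by edgeR, against 1.32% and 2.05% of all genes outside chromosome 15. Their median was -0.32, 4 had an unadjusted p under 0.05, and DESeq2 called 4, none of them higher. Otx2, a transcription factor of the epiblast, was at 15.3, 13.7, 39.3 and 12.2 CPM against 28.1 to 54.9 CPM, -1.17 ± 0.31 (edgeR adjusted p = 0.0496). It lies on chromosome 14, and clone 18 was inside the range of the 7. Sox3 (0.189, 0.0795, 0.762 and 0.346 CPM against 1.05 to 4.84 CPM) and Sox4 (1.70, 1.43, 0.831 and 1.27 CPM against 2.31 to 10.8 CPM) had no overlap, at -2.91 ± 0.59 and -2.17 ± 0.44 (edgeR adjusted p = 0.0184 for both). Sox3 had fewer than 3 counts in clones 16 and 17, so the size of its fold change rests on few reads.

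Among 22 genes of core and naive pluripotency, 1 was called by edgeR, Dppa5a, at 529, 567, 476 and 619 CPM against 330 to 467 CPM, 0.44 ± 0.10 (edgeR adjusted p = 0.0269). The list median was 0.07, with log2 fold changes from -1.03 to 2.86. In that list 6 genes had an unadjusted p under 0.05, and DESeq2 called 3, of which 2 were higher. Nanog was at 836, 621, 749 and 936 CPM against 667 to 827 CPM and did not pass. Of 25 DNA replication genes, Rfc1 was lower (-0.36 ± 0.09, edgeR adjusted p = 0.0493), and of 20 lysosome and autophagy genes, Wipi1 was lower (-0.70 ± 0.14, edgeR adjusted p = 0.0166). The medians of those lists were -0.10 and -0.04, with 3 and 4 genes at an unadjusted p under 0.05 and 1 and 2 called by DESeq2. Of 27 proteasome genes none was called by edgeR and 9 had an unadjusted p under 0.05, a measure that 21.3% of all genes met. Their median was 0.12, and 4 were called by DESeq2. The DESeq2 counts of these lists are to be read beside its 1170 calls among all 11859 genes outside chromosome 15. No gene was called by edgeR among 23 ribosomal protein, 17 heat shock, 17 p53 target, 13 MEK/ERK responsive, 12 Nodal pathway, 19 imprinted and 6 Y-linked genes, where 2, 1, 2, 1, 0, 3 and 0 had an unadjusted p under 0.05 and 0, 1, 0, 0, 0, 2 and 0 were called by DESeq2. Their medians were -0.11, 0.04, -0.14, 0.02, 0.04, -0.13 and -0.09. The lineage marker lists, likewise without an edgeR call, held 4 trophoblast, 8 primitive endoderm, 6 neural and 5 fibroblast genes, with 0, 2, 2 and 2 at an unadjusted p under 0.05 and 0, 0, 2 and 2 called by DESeq2. Their medians were 0.03, 0.40, -0.65 and 0.23.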

How the data were processed

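RNA of 11 clonal lines was sequenced, 1 library each, after RNeasy isolation and TruSeq RNA library preparation, per the labels' protocols. The deposited table holds raw read counts per gene for 22369 mouse Ensembl IDs. TopHat 1.4.0 and Bowtie 0.12.7 are named in the submitters' processing notes, with builds mm9 and hg19. The read counter, the strand it used and how it treated multiply matching reads are not given in the sources used. Gene order came from GENCODE vM21 on a later build than mm9, so no coordinates are given, and 1592 IDs had no symbol or chromosome there (0.401% of counts).

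The deposited counts were scaled to CPM on TMM library sizes (factors 0.971 to 1.04) in edgeR 4.0.16 under R 4.3.3. Log2 values used a pseudocount of 1. Raised runs were the stretch of genes in each clone that best fitted log2 of 1.5 against 0, a method chosen after seeing the data. The test took 12479 genes (mean of 1 CPM or more) in edgeR's quasi-likelihood test of the 4 against the 7 clones, with Benjamini-Hochberg adjustment over all of them. The common coefficient of variation was 21.9%. The SE of a fold change was its size over the square root of the F statistic. The scripts were first tested on simulated data. DESeq2 1.42.0 served as an alternative, with Python 3.11.15, NumPy 2.4.6, pandas 2.3.3 and matplotlib 3.10.9.

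The labels give 1 group, and the split into 4 and 7 clones comes from chromosome 15 expression. Genes, clones and lists were chosen with earlier results of these data known. Named genes were the 10 largest, 10 smallest and 10 most abundant of the stretch, those at its ends, members of the role lists, and on other chromosomes the 10 higher and 10 lower called genes of at least 5 CPM with the largest fold changes plus called list members. The 27 genes of the stretch at 1 to 5 CPM and the 124 below were left out of the description, and some genes that the list counts include are not reported by name here. Alternatives were another pseudocount, scalings, filters, DESeq2, clone 18 alone and leaving out each clone, and, chosen after seeing the data, the run shared by all 4 clones, clone 17 left out beyond its run, clone 16, 17 or 19 alone, and chromosomes without a shifted part. P-values measure the spread between clones and treat each clone as independent, which was not tested. Clones 16, 17 and 19 shared the raised block before Dmc1, and clone 18 did not.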

Additional observations from a re-analysis of the deposited data

Results flagged for a closer look

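Among the named genes, 278 groups of 4 or 7 clones were checked for 1 clone standing apart from the rest of its group by its gap to the nearest value, and 15 did, where about 1 in 20 groups is flagged by chance. Within clones 16 to 19, Tdg-ps in clone 16 was lowest at 4.73 CPM (others 7.22 to 7.34), Eif4b in clone 17 lowest at 1376 CPM (others 1565 to 1582), Tmem106a in clone 18 lowest at 11.7 CPM (others 19.6 to 21.5), Tuba1b in clone 16 highest at 335 CPM (others 292 to 297), Letmd1 in clone 19 highest at 29.1 CPM (others 15.6 to 16.2) and Ano6 in clone 17 highest at 121 CPM (others 93.1 to 97.3).

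Within clones 20 to 26, Prickle1 in clone 26 was highest at 10.7 CPM (others 1.39 to 3.56), Calcoco2 in clone 26 highest at 50.9 CPM (others 16.3 to 25.9), Stra8 in clone 24 highest at 2.90 CPM (others 1.58 to 1.89) and Rbx1 in clone 21 highest at 47.3 CPM (others 41.9 to 43.6). Lowest values were those of Pcbp2 in clone 24 at 489 CPM (others 685 to 826), 4930591A17Rik in clone 24 at 4.79 CPM (others 10.3 to 16.4), Atf1 in clone 22 at 134 CPM (others 153 to 168), Srebf2 in clone 22 at 247 CPM (others 288 to 322) and Snu13 in clone 21 at 96.3 CPM (others 115 to 127). By clone, clone 24 had 3 of these values, clones 16, 17, 21, 22 and 26 had 2 each, and clones 18 and 19 had 1 each.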

How the results depend on the processing

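Over the 222 genes, the median difference lay between 0.51 and 0.54 under the other pseudocount, both other scalings, the filters at 5 CPM in the 7 clones or 1 CPM in all, and each left-out clone. With every gene that had at least 1 count (346 genes) it was 0.37, with 140 little changed and 10 opposite genes. Without clone 18 the opposite genes were 11, and the other left-out clones gave 4 to 8. In the run shared by all 4 clones 25 genes were little changed. Genes without overlap numbered 122 to 143 when a clone was left out. On other chromosomes, DESeq2 called 1170 genes (612 higher, 558 lower), and single clones against the 7 gave 1 for clone 18 (1 higher, 0 lower), 641 for clone 17 (402 higher, 239 lower), 1007 for clone 19 (481 higher, 526 lower) and 415 for clone 16. Left-out clones gave 88 to 865 calls, 59 to 495 higher and 29 to 370 lower. The chromosomes without a shifted part held 154 of the higher calls, a count over fewer genes. Among the 29 named genes none changed direction, DESeq2 kept the call of all 29, and clones 16, 17, 18 and 19 alone kept 10, 9, 1 and 22. The causes were not tested. No paired analysis was possible because the labels give no numbers shared between the clone sets. Genes under a few CPM are limited by depth.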
